A study of Mus musculus with 4 samples.

Results

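The 10 genes described here are Hmox1 and 9 other antioxidant genes that the transcription factor Nrf2 is known to control, namely Nqo1, Gclm, Gclc, Srxn1, Txnrd1, Slc7a11, Gsr, Osgin1 and Prdx1. They were taken as every array probe carrying one of these gene names, which gave 18 probes out of 56605 and 10 genes out of the 27248 with a symbol on the array. On all 4 arrays each of the 10 had a probe that the scanner software marked as well above background, and 16487 genes in all had such a probe on at least 1 array. The question was whether the pattern of Hmox1 across the groups was shared by the other targets. By the brightest probe of each gene, Hmox1 was 7.13-fold lower in untreated Drp1LiKO hepatocytes than in untreated control and 1.27-fold higher with palmitate. Srxn1, the target furthest the other way by that probe, was 1.89-fold higher without palmitate, although some dimmer probes of Slc7a11 differed more.

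Drp1, the product of Dnm1l, is the protein that divides mitochondria. The study cultured primary hepatocytes from Drp1LiKO mice, which carry Drp1 flox/flox alleles and Cre driven by the albumin promoter (Alb-Cre Tg/+), and from control mice, Drp1 flox/flox littermates without Cre that the labels call wild-type or Drp1flox. Every mouse carried the floxed alleles, the strain label is C57BL/6, all animals were male according to the methods, and their age is not given in the sources used here. Cells were collected 24 h after seeding, either without treatment or with palmitate at 200 μM, a saturated fatty acid that the methods describe as prepared in medium with albumin. The albumin promoter acts in hepatocytes, so other liver cells that came along with the preparation would keep Drp1. The 4 groups are control untreated, Drp1LiKO untreated, control palmitate and Drp1LiKO palmitate, with 1 array each, and how many animals or cultures stand behind an array is not given.

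Nrf2, encoded by Nfe2l2, is held in the cytoplasm and sent for degradation by Keap1. When oxidants or electrophiles modify Keap1, Nrf2 accumulates, pairs with a small Maf protein and binds antioxidant response elements near its target genes. Bach1 occupies the same elements and keeps Hmox1 in particular repressed until heme binds to it, so Hmox1 is known to respond to heme as well as to oxidants. In the liver these targets make glutathione, reduce thioredoxin and peroxiredoxins, and break down quinones and heme.

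Values are log2 intensities with the 75th percentile of the array set to 0, and a difference of 1 is therefore a change of 2-fold. With 1 array per group there was no spread between animals or cultures to test against. Probes printed 10 times on each array had a median SD of 0.0364 between repeat spots, so a difference between 2 arrays carried a spot noise of about 0.0515 log2 units, which holds the spot alone. The differences between untreated and palmitate arrays reuse the arrays of the genotype differences and are not independent of them. A gene was counted as called between 2 arrays where its values were at least 2-fold apart and 1 or both of the arrays had its probe well above background.

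The arrays were first checked as a whole. The 75th percentile lay at intensities between 424 and 542, 47.0% to 53.1% of spots were well above background, and none was saturated (0 on each array). The main probe of Dnm1l read 2.42 in control and 1.07 in Drp1LiKO without palmitate, and 2.43 and 1.01 with it, lower in Drp1LiKO on both occasions. Hepatocyte markers had summed intensities, in units of the array's 75th percentile, of 1000 to 1124 on the 4 arrays. Single markers differed more, 7 of 10 being higher in Drp1LiKO without palmitate and 6 with it (6 and 6 after subtracting the median of each array). The highest differences were 1.64 and 1.76 for Ahsg, 1.5 and 1.22 for Tat and 0.94 and 1.12 for Cps1. Lower were 3 of 10 without palmitate and 4 with it. Those were Cyp2e1 at −0.66 and −0.72, Trf at −0.34 and −0.15, Fgb at −0.23 and −0.19, and Apoa1 with palmitate alone at −0.24. Untreated arrays shared 1 slide and palmitate arrays a second, so palmitate and slide cannot be told apart, whereas each genotype difference lies within a slide. The label of the untreated control array says that its raw data also serve a sample of another series.

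Markers of other liver cells differed between the genotypes, not all in the same direction. All 16 measured macrophage markers read higher in Drp1LiKO without palmitate and 14 of 16 with it (15 and 13 where the median of each array was subtracted instead), while no array had Cd163 or Timd4 well above background. A marker counted as measured if 1 array had it well above background, and some, such as Clec4f and Fcgr1, passed through Drp1LiKO arrays alone. With both arrays above background, 9 of 12 macrophage markers were at least 2-fold higher without palmitate, where 4.63% of 14423 genes were. With palmitate 6 of 9 were, where 3.24% of 13823 genes were. The summed level of all 16 macrophage markers was 32.1 on the untreated control array, 63.4 on untreated Drp1LiKO, 39.4 on control palmitate and 62.1 on Drp1LiKO palmitate. Cd14 and Itgam, the brightest on untreated control at 3.72 and 3.09, differed by 0.22 and 0.02 between untreated genotypes. The median log2 difference of the 16 was 2.21 without palmitate and 1.72 with it. With another background correction (normexp) these medians were 1.49 and 0.92. The 8 measured stellate cell markers summed to 0.855, 9.27, 1.05 and 12.3 in the same order, with Des and Hand2 not measured, and the 10 endothelial markers to 1.76, 4.95, 1.73 and 3.50. Dcn was the brightest of the stellate cell markers on each array, at −1.26, 2.94, −0.55 and 3.49. Both arrays of the genotype pair had 3 of the 8 above background without palmitate and 2 with it, and 8 and 6 of the 10 endothelial markers. Cholangiocyte markers (4 measured) summed lower in Drp1LiKO, to 60.5, 41.8, 57.1 and 43.6. Spp1, the brightest at 5.67 on untreated control, weighs most in these sums. Without palmitate Spp1 and Krt19 differed by −0.60 and −0.37, and Krt7 and Sox9 by 1.47 and 0.45, Krt7 not being above background on both arrays. With palmitate Sox9 alone was higher in Drp1LiKO. Lymphocyte markers (3) summed to 0.545, 0.537, 0.615 and 0.762, and erythroid markers (2) to 2.10, 2.30, 1.75 and 1.95. Neutrophil markers (2) summed to 0.0571, 0.188, 0.112 and 0.489. In such bulk samples a different number of cells of a type and a different amount of RNA per cell cannot be told apart. The part these cells have in the values below was not tested.

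Genes that differed on 1 array alone were counted for each array, after the values of Hmox1 had been seen, because Hmox1 was lowest on the untreated Drp1LiKO array. Among 13697 genes well above background on all 4 arrays, 56 were at least 2-fold lower on untreated Drp1LiKO than on each other array, against 45 on control untreated, 9 on control palmitate and 4 on Drp1LiKO palmitate. At least 2-fold higher were 37, 17, 13 and 28 genes in the same order of arrays. Where the 3 other arrays also had to lie within 0.5 log2 units of each other, 45 lower and 23 higher genes were left on untreated Drp1LiKO, and 1 to 3 lower and 6 to 9 higher genes on the others. Hmox1 is one of the 56 and not of the 45, since its 3 other values were further apart. Every difference that uses the untreated Drp1LiKO array is given below together with those that do not.

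**Figure D1:**
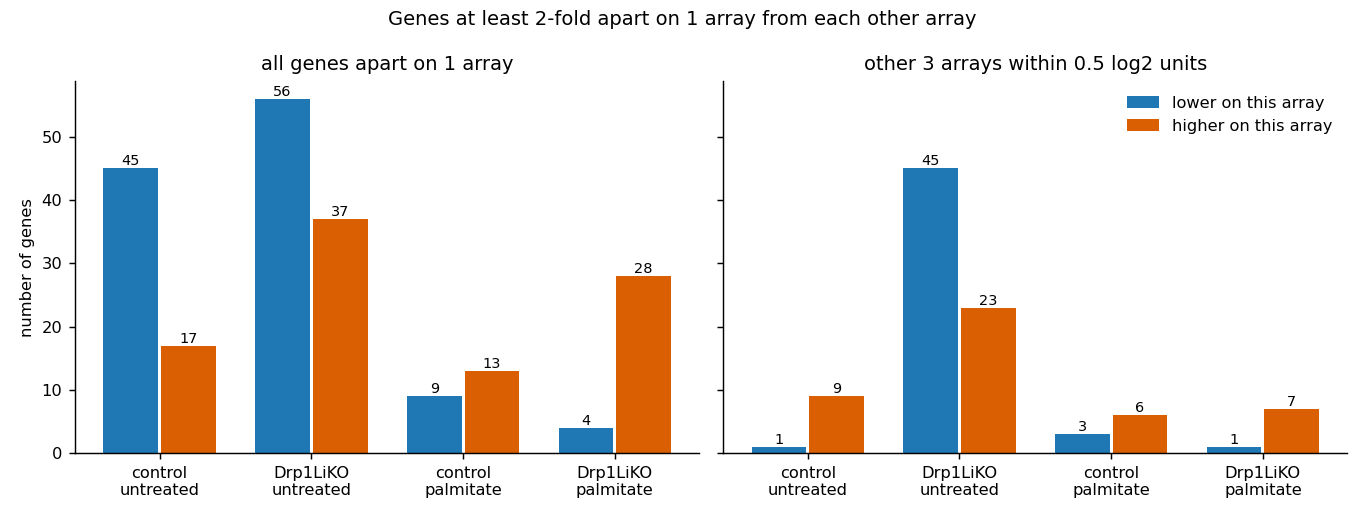
Number of genes (vertical axis) at least 2-fold lower or higher on 1 array than on each of the other 3, among 13697 genes well above background on all 4 arrays, in all (left) and where those 3 lay within 0.5 log2 units of each other (right). The untreated Drp1LiKO array has 56 lower genes against 45 on untreated control in the left panel, and 45 against 1 in the right.

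Hmox1, heme oxygenase 1, opens the heme ring to give biliverdin, iron and carbon monoxide. Its main probe (mm9 chr8:77624406-77624466, plus strand) read 3.20 on the untreated control array, 0.36 on untreated Drp1LiKO, 4.43 on control palmitate and 4.77 on Drp1LiKO palmitate. The untreated Drp1LiKO array was thus the low one, and both palmitate arrays were above both untreated arrays. Without palmitate Hmox1 was 7.13-fold lower in Drp1LiKO than in control (log2 difference −2.83), the rank 13 from the lowest among 14423 genes above background on both arrays. With palmitate the genotypes lay close together, and Drp1LiKO was 1.27-fold higher (0.34).

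Palmitate arrays carried more Hmox1 in both genotypes. In control the palmitate array was 2.34-fold higher (log2 difference 1.23), which does not use the untreated Drp1LiKO array. In Drp1LiKO it was 21.2-fold higher (4.40), rank 1 among 14590 genes above background on both arrays. The log2 difference between these responses was 3.17, rank 3 from the highest of 13697 genes. Both responses are read across the 2 slides.

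The scanner record of this Hmox1 spot was also read. The spot had 43 to 46 pixels on the arrays, a pixel coefficient of variation of 18.8% to 21.8%, a local background of 58 on each array and no outlier flag. Its processed intensity was 4452 on control untreated, 698 on Drp1LiKO untreated, 9112 on control palmitate and 12752 on Drp1LiKO palmitate. For the 10 of its 24 neighbours above background on every array, each value was compared with the median of that spot on the other arrays. On untreated Drp1LiKO these neighbours lay a median of 0.22 log2 units higher. The medians on control untreated, control palmitate and Drp1LiKO palmitate were 0.02, −0.05 and −0.05.

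A second Hmox1 probe (mm9 chr8:77620085-77620144), designed to another transcript, was close to background. It read −5.54, −4.48, −5.42 and −4.37 in the order control untreated, Drp1LiKO untreated, control palmitate and Drp1LiKO palmitate, and was well above background on the Drp1LiKO arrays alone. It was at least 1.19-fold higher in untreated Drp1LiKO than in untreated control, the opposite direction to the main probe, and gave no bound with palmitate. Averaging both probes turned the untreated genotype difference of Hmox1 into −0.89 and the palmitate difference in control into 0.67, which ended both calls, while the palmitate difference in Drp1LiKO stayed at 2.26.

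**Figure D2:**
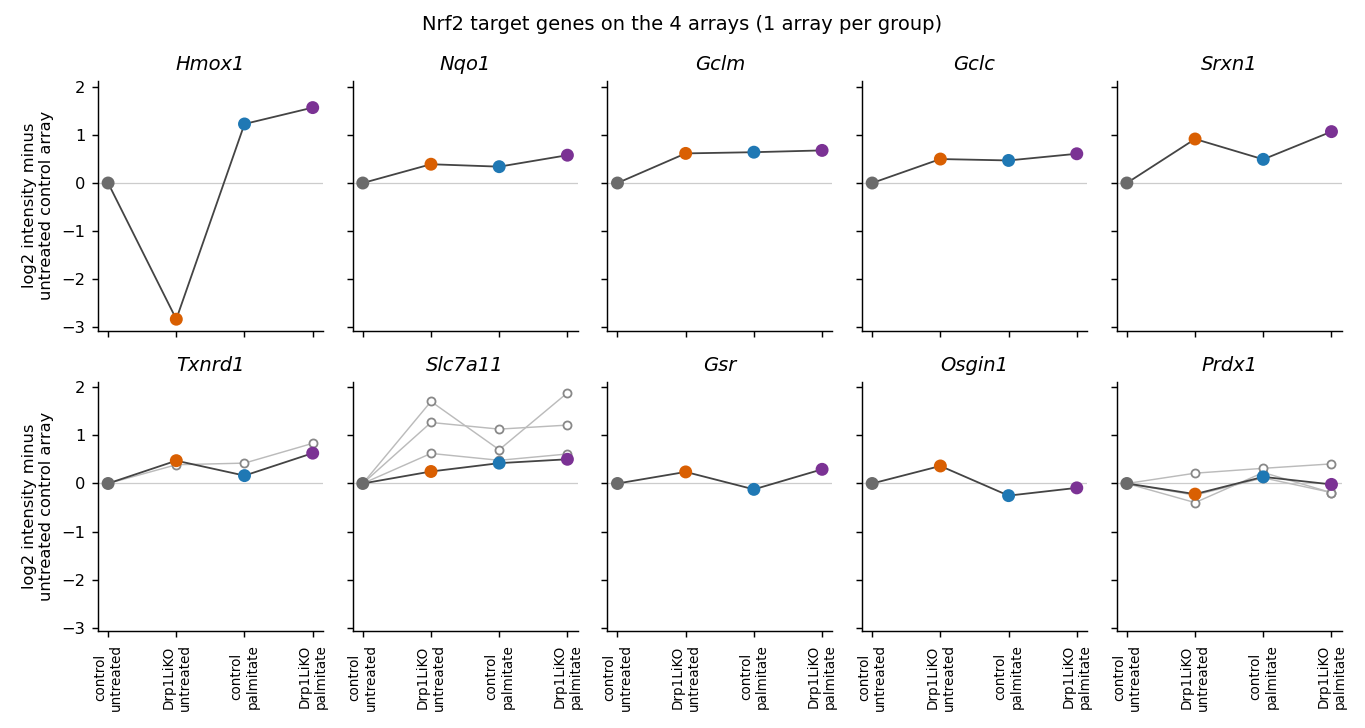
Log2 intensity of each of the 10 genes on the 4 arrays, minus its value on the untreated control array (vertical axis), with 1 array per group. Filled points are the probe that stands for the gene, open points its other probes above background on all 4 arrays, and lines join the values of 1 probe. Hmox1 lies 2.83 below the untreated control on the untreated Drp1LiKO array, where Nqo1, Gclm, Gclc, Srxn1, Txnrd1, Slc7a11, Gsr and Osgin1 lie above it.

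By the probe that stands for each gene, as in all counts of this paragraph, none of the other 9 targets shared this pattern (0 of 9). A gene was said to share it where the untreated Drp1LiKO array was at least 1 log2 unit below each other array, and this held for Hmox1 alone among the 10, against 0.716% of all 16487 genes (0.409% of those above background on all 4 arrays). Between untreated genotypes Hmox1 was the 1 member of 10 called, where 14.2% of 15968 genes were called and 5.68% were called lower. With palmitate 0 of 10 were called between genotypes, where 11.6% of 15334 genes were. Palmitate against untreated called Hmox1 alone in control, where 5.07% of 15221 genes were called, and Hmox1 alone in Drp1LiKO, where 6.16% of 15869 were. The palmitate responses were at least 2-fold apart for Hmox1 alone, against 1.71% of 13697 genes. With 10 genes, shares of this size leave about 1 gene or none, so the counts alone say little about the 9 others.

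Read without the 2-fold limit, most of the other targets lay opposite to Hmox1 between untreated genotypes and on the same side as Hmox1 in the 3 other comparisons. Between untreated genotypes 8 of the 9 were higher in Drp1LiKO, with a median log2 difference of 0.39, where 46.2% of 14423 genes were higher and their median was −0.03. With palmitate the same 8 genes were higher, with a median of 0.16, where 44.1% of 13823 genes were higher. The exception both times was Prdx1. Subtracting the median of each array in place of the 75th percentile moved the median of all genes tested from −0.02 to −0.20 without palmitate and from −0.02 to −0.17 with it. On that scale 8 of the 9 stayed higher without palmitate, but with palmitate 5 did, since Gclm, Gclc and Slc7a11 turned just below 0. Relative to the median of all genes, 9 of the 10 were higher with palmitate. This count cannot change between the 2 scales, because each scale shifts all genes of an array by the same amount. Higher in Drp1LiKO in both conditions were 34.5% of 13697 genes. These directions were counted after the values had been seen. Most of the macrophage, stellate cell, endothelial and hepatocyte markers given above were higher on the same Drp1LiKO arrays. Of the 4 cholangiocyte markers 2 were higher without palmitate and 1 with it. The part of these markers in the differences was not tested.

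**Figure D3:**
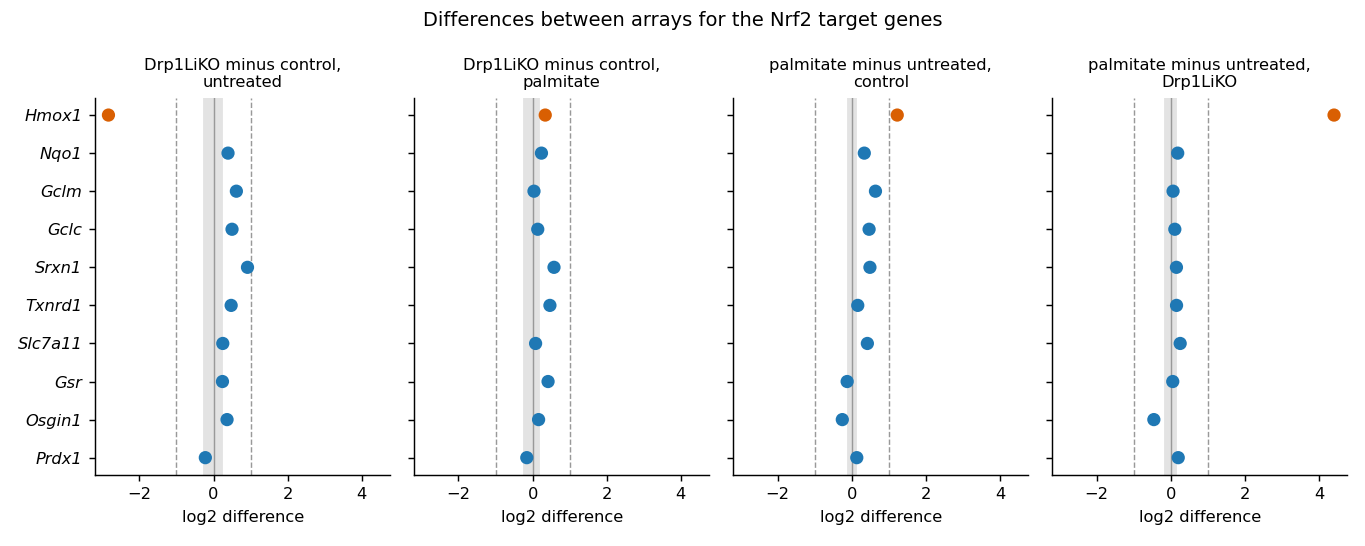
Log2 differences (horizontal axis) of the 10 genes in the 4 comparisons between 2 arrays, with Hmox1 in orange, the interquartile range of 13697 genes above background on all 4 arrays as a grey band and the 2-fold limits as dashed lines. Each gene is drawn by the probe that stands for it. By that probe Hmox1 lies outside the limits in 3 of the 4 comparisons (−2.83, 1.23 and 4.40) and no other gene does. Dimmer probes of Slc7a11, not drawn, also passed the limits, with values up to 1.71.

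Among the glutathione-making targets, Gclc, the catalytic subunit of glutamate-cysteine ligase, read 3.44 on control untreated, 3.93 on Drp1LiKO untreated, 3.90 on control palmitate and 4.04 on Drp1LiKO palmitate. Gclm, its modifier subunit, read 4.35, 4.97, 4.99 and 5.03 in that order. For both subunits the untreated control array was the low one and the 3 others lay together. Gclm was 0.62 higher in Drp1LiKO without palmitate and 0.04 with palmitate, and it was 0.64 higher with palmitate in control and 0.06 in Drp1LiKO. The matching values of Gclc were 0.50, 0.14, 0.47 and 0.11.

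Slc7a11, the cystine importer that feeds this pathway, was measured by 4 probes on all arrays. The brightest read 2.98, 3.23, 3.40 and 3.48 in the order used above, a genotype difference of 0.25 without palmitate and 0.08 with it. The other probes, which target other positions, read −2.68, −0.97, −1.98 and −0.79, then 0.68, 1.31, 1.17 and 1.30, and then −3.97, −2.70, −2.84 and −2.75. All 4 probes were lowest on the untreated control array, but their untreated genotype differences ran from 0.25 to 1.71, so the size depends on the probe and only the direction was shared. Gsr, which regenerates reduced glutathione, read 5.86, 6.10, 5.73 and 6.15, with both Drp1LiKO arrays above both control arrays. Its genotype difference was 0.24 without palmitate and 0.42 with it.

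Among the thioredoxin branch, Srxn1, the sulfiredoxin that repairs overoxidised peroxiredoxins, differed most. It read 5.81 on control untreated, 6.73 on Drp1LiKO untreated, 6.30 on control palmitate and 6.88 on Drp1LiKO palmitate, both Drp1LiKO arrays lying above both control arrays. Its genotype difference was 0.92 without palmitate, just under the 2-fold limit, and 0.58 with it. The first became 1.02 after quantile normalization and reached 1.03 in the deposited table, which passes the limit. Txnrd1, the cytosolic thioredoxin reductase, read 5.46, 5.93, 5.62 and 6.09, with a genotype difference of 0.47 in both conditions. A second Txnrd1 probe read 4.59, 4.98, 5.02 and 5.43, and its genotype differences were 0.39 and 0.41.

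Prdx1, the peroxiredoxin that removes hydrogen peroxide with electrons from thioredoxin, went the other way. Its brightest probe read 8.52, 8.30, 8.66 and 8.51, a genotype difference of −0.22 without palmitate and −0.16 with it. Of its 3 other probes, those reading 7.78, 7.38, 8.01 and 7.59 and 5.86, 5.62, 5.98 and 5.67 were also lower in Drp1LiKO. The dimmest read −2.84, −2.62, −2.52 and −2.43 and was higher. No Prdx1 probe came near the drop of Hmox1 on the untreated Drp1LiKO array.

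Nqo1, which reduces quinones, read −0.03, 0.36, 0.31 and 0.55. Its untreated control array was low, like that of Gclm and Gclc, and its genotype difference was 0.39 without palmitate and 0.24 with it. Osgin1, a growth inhibitor induced by oxidative stress, read 7.40, 7.76, 7.14 and 7.31. It was the one member lower with palmitate in both genotypes, by log2 differences of −0.25 in control and −0.46 in Drp1LiKO.

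By the probe that stands for each gene, 6 of the 9 had the same lowest and the same highest array. Nqo1, Gclm, Gclc, Srxn1, Txnrd1 and Slc7a11 were lowest on untreated control and highest on Drp1LiKO palmitate, as 11.6% of 13697 genes were. Gclm was above control palmitate there by 0.04, less than the spot noise of 0.0515. Other Slc7a11 probes were highest on untreated Drp1LiKO, at 1.31 against 1.30 on Drp1LiKO palmitate and −2.70 against −2.75. Being lowest on the untreated control array held for the same 6 genes and for 23.3% of all genes. The low point of Hmox1 was the untreated Drp1LiKO array, as for Prdx1 and for 30.5% of all genes. Palmitate arrays were higher in control for 7 of the 9, where 50.8% of 13868 genes were, and in Drp1LiKO for 8 of the 9, where 49.6% of 14590 genes were (7 of the 9 after quantile normalization and in the deposited table, where Gsr was just below 0). These 2 differences lie across slides.

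**Figure D4:**
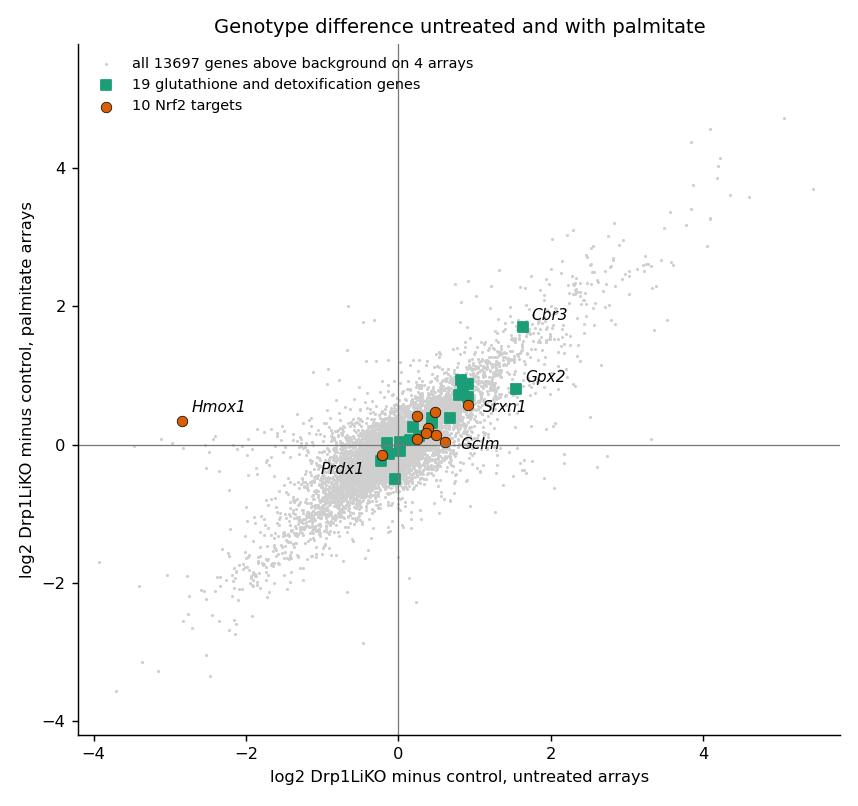
Log2 difference between Drp1LiKO and control on the untreated arrays (horizontal axis) and on the palmitate arrays (vertical axis) for 13697 genes above background on all 4 arrays (grey), 19 glutathione and detoxification genes (green squares) and the 10 Nrf2 targets (orange circles). Hmox1 lies at −2.83 and 0.34, away from the other targets, which lie between −0.22 and 0.92 on the horizontal axis.

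The additive model over the 4 arrays, with a term for genotype and one for palmitate, leaves 1 residual degree of freedom, which also holds the interaction. By limma with Benjamini-Hochberg adjustment over 16487 genes it called 0 genes for genotype (4766 had an unadjusted p under 0.05), and 0 of the 10 members. Txnrd1 had a genotype term of 0.47 (SE 0.068, limma adjusted p = 0.118) and Srxn1 of 0.75 (SE 0.13, limma adjusted p = 0.134). These were the 2 members with an unadjusted p under 0.05, and both were higher in Drp1LiKO in both conditions. Hmox1 had a term of −1.25 (SE 1.07, limma adjusted p = 0.484), its genotype differences pointing opposite ways. An eBayes fit with an intensity trend called 4750 genes and 6 members instead, Nqo1, Srxn1, Txnrd1, Gsr, Osgin1 and Prdx1.

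Promoters of the members were read for the core of the antioxidant response element, TGACNNNGC on either strand. The reason was that 6 of the targets had the same lowest and the same highest array. The window was the 250 bases before each RefSeq start (GRCm38.p6), and 7 of the 10 genes were in the table, without Hmox1, Gclc and Gsr. The core was in 3 of the 7, Gclm, Prdx1 and Txnrd1, the last in 1 of its 3 windows, and in 11.5% of 27025 genes. No match was found in these windows for Nqo1, Srxn1, Slc7a11 and Osgin1. The 30 bases around each match are shown on the plus strand 5′ to 3′, with the core, which lies on the minus strand, in capitals. They lie at chr3:122245413-122245442, 134 bases before the start of Gclm, at chr10:82859104-82859133, 92 bases before a start of Txnrd1, and at chr4:116685456-116685485, 133 bases before the start of Prdx1.
Gclm: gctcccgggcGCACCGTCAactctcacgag
Txnrd1: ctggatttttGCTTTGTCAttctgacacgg
Prdx1: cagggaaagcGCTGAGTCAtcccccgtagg
The match in Prdx1 overlaps an AP-1 motif, TGAGTCA. The matches are letters in a window, and binding was not measured.

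The genes that regulate Nrf2 differed in both directions. Nfe2l2 itself read 3.94 on control untreated, 3.45 on Drp1LiKO untreated, 3.80 on control palmitate and 3.48 on Drp1LiKO palmitate, lower on both Drp1LiKO arrays than on their controls, with differences of −0.49 and −0.32. Bach2, a relative of Bach1, had the lowest genotype differences of the list, −0.87 and −0.61. It was dim, reading −3.32, −4.18, −3.39 and −4.01 in the same order of arrays, though above background on each. Keap1 differed by 0.08 and −0.08 between genotypes, and Bach1 by 0.32 and 0.20. The small Maf genes that pair with Nrf2 or Bach1 differed by 0.23 and 0.34 for Mafg, 0.35 and 0.36 for Maff, and −0.21 and −0.17 for Mafk. Sqstm1, whose product p62 binds Keap1 and which is a target as well, was 0.26 and 0.23 higher. Of the 13 regulators, all measured, 8 were higher in Drp1LiKO without palmitate and 5 with it (6 and 5 after subtracting the median). Gsk3b, a kinase that marks Nrf2 for degradation, was the 1 regulator at least 2-fold apart in a comparison with both arrays above background, reading 1.79, 2.73, 1.72 and 1.60, with a genotype difference of 0.94 without palmitate and a palmitate difference of −1.13 in Drp1LiKO, where 2.06% of 14590 genes were at least 2-fold apart.

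Genes that handle heme and iron differed in both directions. The highest genotype differences were those of Alas1, the first enzyme of heme synthesis, at 0.96 and 0.90, and the lowest those of Hp, the haemoglobin-binding plasma protein haptoglobin, at −0.85 and −0.78. Hmox2, the constitutive heme oxygenase, read 2.98, 3.05, 2.98 and 2.99, level on all arrays. Blvra and Blvrb, the reductases of the biliverdin that heme oxygenase makes, differed in opposite directions, Blvra by −0.46 and −0.45 between genotypes and Blvrb by 0.24 and 0.18. The ferritin chains Fth1 and Ftl1, which store the released iron, differed by −0.18 and −0.05 and by −0.29 and −0.14. Slc40a1, the iron exporter ferroportin, differed by −0.08 in both conditions. Of the 13 genes on this list, 0 were at least 2-fold apart in any of the 4 comparisons, the medians between genotypes being −0.08 and −0.05. Of all genes above background on both arrays, 8.24% were so between untreated genotypes and 5.99% with palmitate. For palmitate 0.981% were in control and 2.06% in Drp1LiKO. A count of 0 in a list this short therefore says little.

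Of 6 enzymes that supply NADPH, Tkt alone was at least 2-fold apart, between untreated genotypes and for palmitate in Drp1LiKO. Of all genes above background on both arrays, 8.24% and 2.06% were. Tkt, the transketolase of the pentose phosphate pathway, read 6.90 on control untreated, 4.42 on Drp1LiKO untreated, 6.78 on control palmitate and 6.67 on Drp1LiKO palmitate. It was thus low on the same array as Hmox1, by a genotype difference of −2.48, and level on the 3 others. With palmitate its genotype difference was −0.11. The other 5 enzymes, G6pdx, Pgd, Taldo1, Me1 and Idh1, had genotype differences from −0.15 to 0.48 without palmitate and from −0.04 to 0.30 with it. Idh1 was the highest in both conditions. In the list of thioredoxin, peroxiredoxin and antioxidant enzymes, 0 of 17 were at least 2-fold apart in any comparison, and their medians between genotypes were −0.05 and −0.09. Of all genes above background on both arrays, 8.24% and 5.99% were between genotypes, and 0.981% and 2.06% for palmitate in control and Drp1LiKO. This count of 0 also says little.

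The glutathione and detoxification genes, another group of known Nrf2 targets, ran higher in Drp1LiKO. Of 21 listed genes 19 were measured, without Ggt1 and Gsta1, and 15 of the 19 were higher in Drp1LiKO in each condition, with medians of 0.44 and 0.31 (12 and 11 after subtracting the median of each array). Of all genes 46.2% and 44.1% were higher. Most macrophage, stellate cell, endothelial and hepatocyte markers above were also higher on the same arrays, a part that was not tested. The list was put together with earlier results of these data known and is described by these counts alone. Cbr3, a carbonyl reductase, read 2.16, 3.79, 2.49 and 4.19, high on both Drp1LiKO arrays, by 1.63 without palmitate and 1.70 with it. Gpx2, a glutathione peroxidase, read −2.55, −1.0, −2.23 and −1.43, and was higher by 1.55 and 0.80. Those were the 2 genes of the list at least 2-fold higher without palmitate, where 4.63% of 14423 genes were, and Cbr3 was the 1 with palmitate, where 3.24% of 13823 were. Palmitate differences on this list were small, with medians of 0.08 in control and 0.02 in Drp1LiKO and 0 genes at least 2-fold apart. Of all genes above background on both arrays, 0.981% were in control and 2.06% in Drp1LiKO.

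**Figure D5:**
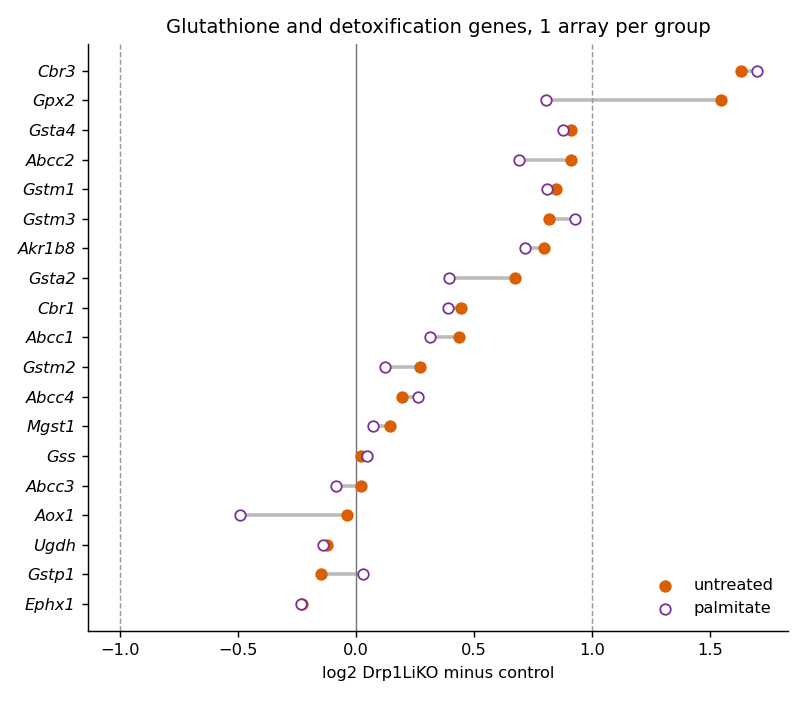
Log2 difference between Drp1LiKO and control (horizontal axis) of 19 measured glutathione and detoxification genes, untreated (filled) and with palmitate (open), with the 2-fold limits dashed. Cbr3 lies beyond the limit in both conditions (1.63 and 1.70) and Gpx2 without palmitate (1.55), and 15 of the 19 are above 0 in each condition.

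The genes whose 4-array pattern was most like that of Hmox1 were outside the antioxidant program. Likeness was the Euclidean distance between values centred on the gene's own mean, over 4 arrays and 13696 genes, and says nothing of shared control. The nearest was Prmt1, a protein arginine methyltransferase, at a distance of 1.04, reading 4.72, 1.61, 4.93 and 5.01. After it came Ccdc71 (1.55), Dnajc7 (1.59), Cyp39a1 (1.62) and LOC102636349 (1.77). They too were low on the untreated Drp1LiKO array, but the first 4 differed by no more than 0.21 between control palmitate and control untreated, where Hmox1 differed by 1.23. Among the 9 other Nrf2 targets the nearest was Prdx1 at rank 2156 (distance 3.25) and the farthest Osgin1 at rank 12778 (3.90). The values were not scaled to a common range. By the probe that stands for each gene, Hmox1 ranged over 4.40 log2 units and none of the 9 over more than 1.07. These ranks therefore reflect small ranges as well as direction.

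In all, 56 genes above background on every array were at least 2-fold lower on the untreated Drp1LiKO array than on each other array. By the size of that gap Hmox1 had rank 2, after Prmt1, and Tkt rank 7. A second probe above background on all arrays was there for 19 of the 56, and for 7 of the 19 it was low on that array as well, by the same limit. Hmox1 was not among the 19, so its drop on the untreated Drp1LiKO array rests on 1 probe on 1 array. Without that array its values are 3.20, 4.43 and 4.77, and the palmitate difference in control of 1.23 and the genotype difference with palmitate of 0.34 remain.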

How the data were processed

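Hepatocyte RNA was labelled with Cy3 and hybridised to SurePrint G3 Mouse 8x60K v2 arrays, 4 arrays in 4 groups taken from the labels. The deposited scanner tables hold processed intensity values on a linear scale, made by the authors with Feature Extraction (10.7.1.1 per the file headers, 9.5.1.1 in the submitters' processing notes), which subtracted background, with no scaling between arrays. A second deposited table holds the authors' processed intensity per probe, its columns sharing 1 median and keeping each array's rank order, and served as an alternative. Labels and methods name different RNA kits. Probe coordinates are those of the files (mm9), and exon or UTR annotation was not analysed here.

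Intensities were transformed to log2 and the array's 75th percentile over non-control spots was subtracted. Control spots and outlier-flagged spots were left out and repeat spots averaged. A gene was represented by its probe with the highest mean among those well above background on at least 1 array. Where 1 array of a pair was dim, a lower bound was computed against the higher of the probe's value and the array's lowest signal above background. Differences between 2 arrays had no test. The additive model was fitted with limma 3.58.1 (lmFit, eBayes, two-sided) in R 4.3.3, and checked on simulated data. Alternatives were other scaling (median, quantile), normexp with an offset of 50, the deposited table, other filters, the mean of all probes and, for the model, an intensity trend or genotype alone. Named genes were all members, fixed regulators and heme genes, listed genes at least 2-fold apart with both arrays above background, Dnm1l and the 5 genes nearest to Hmox1. Bach2, Alas1, Hp, the 5 other NADPH enzymes and single marker genes were named after their values were seen. Members and lists were chosen with earlier results of these data known. The number of arrays limits the precision.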

Additional observations from a re-analysis of the deposited data

Results flagged for a closer look

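The genotype difference of Hmox1 pointed opposite ways in the 2 conditions, −2.83 without palmitate and 0.34 with it, a log2 difference of 3.17 between them. With 1 array per group this was not tested.

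The palmitate difference of Gsr also had opposite signs, −0.12 in control and 0.05 in Drp1LiKO, 0.18 apart. It was not tested either, and the value in Drp1LiKO is about the size of the spot noise of a difference (0.0515).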

How the results depend on the processing

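Of the 50 values of members in the 4 comparisons and the difference of the palmitate responses, 44 kept their sign under all 7 alternatives. The 6 others were at most 0.14 in size and are Gclm, Gclc and Slc7a11 between genotypes with palmitate, Gsr with palmitate in Drp1LiKO, and Txnrd1 and Prdx1 for the difference of the responses. Members called between untreated genotypes numbered 2 after quantile normalization and 2 in the deposited table, where Srxn1 joined Hmox1, and 0 with the mean of all probes. With that mean, members called for palmitate in control and members sharing the Hmox1 pattern were also 0.

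Counts over all genes moved more. Genes called between untreated genotypes, between palmitate genotypes, for palmitate in control and for palmitate in Drp1LiKO were 2274, 1775, 772 and 977. They were 910, 609, 228 and 311 with normexp, 1188, 828, 136 and 301 with both arrays above background, and 3464, 2962, 1974 and 2372 with no filter. Genes with palmitate responses at least 2-fold apart numbered 234, against 109 with normexp, 3340 with no filter and 415 with the mean of all probes. Genes sharing the Hmox1 pattern numbered 118, against 37, 56 with all 4 arrays above background, and 193 with no filter. Subtracting the median moved the share of higher genes among those called between untreated genotypes from 60.1% to 48.8%. The genotype term by limma, with 0 genes called, called 1845 genes and 1 member (Txnrd1) with normexp, 2828 and 2 (Srxn1 and Txnrd1) with all 4 arrays above background, 4750 and 6 with an intensity trend, and 556 and 0 with genotype as the only term. The cause was not tested. The palmitate term of the additive model is also its block for slide, and without it the model is the one with genotype alone. The labels give no replicate numbers to pair arrays by.

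The second probe of Hmox1 was well above background on the Drp1LiKO arrays alone, which limits what it measures to a bound.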
